A study of Mus musculus with 20 samples.

Results

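The genes described here are 10 immediate early genes, Fos, Fosb, Jun, Junb, Egr1, Atf3, Ier2, Ier3, Btg2 and Dusp1, which were taken by name out of the 57010 genes of the count table. RNA of whole liver and whole kidney was sequenced from male UM-HET3 mice, a stock bred to be genetically mixed. The mice were 12 months old when 7c or vehicle was delivered for 28 days from osmotic pumps under the skin, and in each tissue 6 libraries came from 7c and 4 from vehicle. In 7c mice, repsox, tranylcypromine, DZNep, CHIR99021, forskolin and TTNPB were each given at 0.1 mg/kg/day and valproate at 1 mg/kg/day, whereas vehicle mice carried pumps with the DMSO and PEG300 solvent only. All mice were euthanized at the end of the treatment and the tissues were flash-frozen. Total counts per library were 28383359 to 34153084 for livers and 27855849 to 64872451 for kidneys, and every 7c liver was sequenced less deeply than every vehicle liver.

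Immediate early genes are transcribed within minutes of a stimulus, without the need for new protein, by factors that are already in the cell and are switched on by kinases. CREB, which binds the cAMP response element (CRE), and serum response factor, which binds the CArG box, are the best known of these factors, and forskolin raises cAMP. The transcripts are short-lived, so that their level in a piece of tissue reflects the recent past of its cells and is known to respond to handling and to time of day.

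Promoter sequences are shown here because such elements are known to switch on genes of this class. Each of the 21770 protein-coding promoters of GENCODE vM39 was searched on both strands from 350 bases before the transcription start to 49 bases after it. The full CRE, TGACGTCA, was present in 3 of the 10 genes (Ier2, Btg2 and Dusp1) and in 2.58% of all promoters. The shorter CRE core TGACG, which is part of the full CRE and is counted within it, was present in 9 of 10 genes, all but Ier3, and in 25.9% of all promoters. The CArG box was found in 2 genes, Fos and Fosb, and in 2.08% of all promoters. TATAAA was found in Fos and Junb and in 18% of all promoters, and the AP-1 site TGANTCA in none of the 10 genes and in 9.5% of all promoters. These are matches of letters, and binding was not measured. In the following stretches, read 5′ to 3′ on the strand of the gene from the GRCm39 genome, capitals mark the CArG box of Fos and Fosb, the TATA box of Junb and the full CRE of Dusp1:

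Fos, chr12:85520328-85520627 (plus strand): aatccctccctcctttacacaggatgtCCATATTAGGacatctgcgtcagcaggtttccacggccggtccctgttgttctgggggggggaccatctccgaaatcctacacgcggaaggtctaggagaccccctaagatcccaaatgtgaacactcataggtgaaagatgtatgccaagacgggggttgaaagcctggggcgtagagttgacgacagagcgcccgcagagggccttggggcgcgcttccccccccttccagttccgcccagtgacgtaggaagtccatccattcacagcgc
Fosb, chr7:19044007-19044306 (minus strand): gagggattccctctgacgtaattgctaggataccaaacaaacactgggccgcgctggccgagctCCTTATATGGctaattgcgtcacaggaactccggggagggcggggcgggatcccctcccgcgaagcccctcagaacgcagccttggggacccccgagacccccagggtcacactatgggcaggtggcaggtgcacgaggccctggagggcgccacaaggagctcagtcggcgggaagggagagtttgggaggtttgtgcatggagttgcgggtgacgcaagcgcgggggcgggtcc
Junb, chr8:85705347-85705477 (minus strand): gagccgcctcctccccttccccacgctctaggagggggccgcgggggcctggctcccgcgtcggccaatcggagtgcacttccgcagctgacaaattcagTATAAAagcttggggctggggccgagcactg
Dusp1, chr17:26727524-26727673 (minus strand): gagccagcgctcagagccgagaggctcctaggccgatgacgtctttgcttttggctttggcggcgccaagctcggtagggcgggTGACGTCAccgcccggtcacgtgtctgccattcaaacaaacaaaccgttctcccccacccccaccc

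The Fos stretch ends 31 bases before the start of transcription and its CArG box begins 303 bases before it, while the CArG box of Fosb begins 266 bases before its own start. In Junb the TATA box begins 30 bases before the start, and in Dusp1 the CRE begins 96 bases before it. Matches to the shorter core are left in lower case.

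Levels are given as CPM, the count scaled to library size with TMM factors over all 20 libraries, and, where genes are compared with each other, as RPKM, the same value per kilobase of the exons of the gene. In liver, Ier2, a nuclear protein of the early response, had the highest level per length at 14.6 ± 3.41 RPKM (SD, n = 10) and was above Junb in 10 of 10 livers. Junb, with 5.68 ± 2.43 RPKM, and Dusp1, with 5.53 ± 3.31 RPKM, could not be separated, since Junb was the higher of the pair in 5 of 10 livers. Jun followed with 4.33 ± 1.40 RPKM. A second tier was formed by Egr1 (1.31 ± 0.638 RPKM) and Btg2 (1.15 ± 0.269 RPKM), again with the former higher in 5 of 10 livers. Ier3, Fos and Atf3 lay at 0.786 ± 0.556, 0.747 ± 0.862 and 0.713 ± 0.432 RPKM, and Fos was above Atf3 in only 4 of 10 livers. Fosb was lowest at 0.111 ± 0.137 RPKM.

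In kidney the order was led by Ier3, a stress-induced membrane protein of the early response, at 13.6 ± 4.25 RPKM (SD, n = 10), above Dusp1 in 10 of 10 kidneys. Dusp1 (7.47 ± 2.16 RPKM) exceeded Ier2 (6.65 ± 2.12 RPKM) in 6 of 10 kidneys and Ier2 exceeded Jun (6.13 ± 1.38 RPKM) in 5 of 10, so these 3 levels were not ordered beyond their spread. Junb had 3.86 ± 0.544 RPKM, Btg2 1.73 ± 0.255 RPKM and Egr1 0.862 ± 0.439 RPKM, each above the next gene in 10 of 10 kidneys except Egr1, which was above Atf3 in 8 of 10. Atf3, Fos and Fosb closed the order with 0.492 ± 0.259, 0.266 ± 0.128 and 0.0489 ± 0.0299 RPKM.

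**Figure D1:**
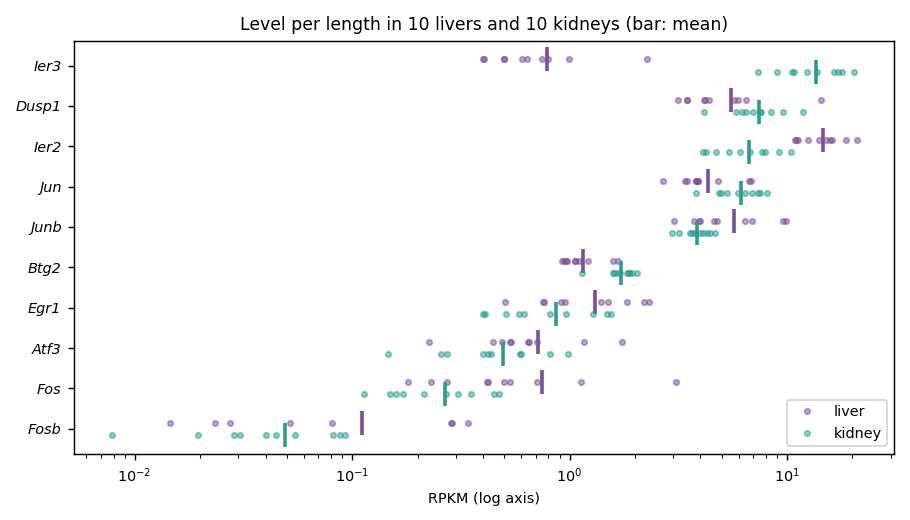
Level per length (RPKM, log axis) of the 10 genes in 10 livers and 10 kidneys, with points for libraries and a bar for the mean. The 2 livers with 0 counts of Fosb cannot be drawn on a log axis, and Ier3 and Ier2 are the genes whose livers and kidneys do not overlap, Ier2 with TMM scaling but not with library totals.

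Kidney was compared with liver over all 20 libraries, with treatment as a second term, in edgeR (quasi-likelihood F-test, Benjamini-Hochberg adjustment). Of the 10 genes, 4 were higher in kidney and 3 higher in liver past an adjusted p of 0.05, where 38.3% and 33.7% of all genes tested were called in these directions. The median gene was itself 0.12 higher in kidney on the log2 scale with TMM and 0.75 higher when libraries were scaled by their totals. A log2 fold change is therefore also given below relative to the median gene. This value differed by at most 0.02 between TMM, RLE size factors and library totals. Scaling moves all genes nearly alike, so that agreement was close to fixed in advance and does not show which scaling is right.

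Ier3 showed the widest difference. Its liver libraries had 0.454 to 2.59 CPM and its kidney libraries 8.39 to 23.1 CPM, without overlap, a log2 fold change of 4.12 with a standard error of 0.275 (edgeR, adjusted p = 3.87e-12) or 4.01 relative to the median gene. Btg2, an antiproliferative protein that recruits the deadenylation machinery to mRNA, had 7.20 ± 1.69 CPM in liver and 10.8 ± 1.60 CPM in kidney (log2 fold change 0.59, adjusted p = 0.000336 from edgeR). Jun was higher in kidney by 0.49 (adjusted p = 0.0117 from edgeR), and Dusp1, a phosphatase that switches off MAP kinases, by 0.50 (adjusted p = 0.0360 from edgeR). Relative to the median gene these values were 0.47 for Btg2, 0.37 for Jun and 0.38 for Dusp1, and with library totals they were 1.23, 1.13 and 1.13. The call for Dusp1 was lost in 5 of 19 alternative fits, with an adjusted p of up to 0.117.

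In the other direction, Ier2 had 22.3 ± 5.20 CPM in liver and 10.1 ± 3.24 CPM in kidney. With TMM every kidney was below every liver, and the difference was -1.13 on the log2 scale with a standard error of 0.172 (edgeR, adjusted p = 3.68e-06) or -1.25 relative to the median gene. Scaled by library totals the ranges overlapped, at 12.8 to 27.5 CPM in liver and 8.20 to 17.9 CPM in kidney, and the difference was -0.52 (edgeR, adjusted p = 0.00743). Fos was at -1.34 with a standard error of 0.441 (edgeR, adjusted p = 0.00973) but its ranges overlapped widely, livers having 0.427 to 7.24 CPM and kidneys 0.267 to 1.12 CPM. With library totals it was -0.70 and no longer called (edgeR, adjusted p = 0.157), while relative to the median gene it was -1.46 under both. Junb, the AP-1 subunit that often restrains Jun, was at -0.55 with TMM (adjusted p = 0.0125 from edgeR) and at 0.09 with library totals, and relative to the median gene it was -0.67 under both. Egr1 (-0.58, adjusted p = 0.0809), Atf3 (-0.59, adjusted p = 0.149) and Fosb (-1.10, adjusted p = 0.162) did not pass edgeR's test. With library totals Egr1 was at 0.07 and Atf3 at 0.05, and relative to the median gene Egr1 was at -0.70 with TMM and -0.68 with library totals and Atf3 at -0.71 and -0.70. Fosb was at -0.48 with library totals and at -0.043 in limma-voom, and relative to the median gene at -1.22 with TMM and -1.23 with library totals. In bulk tissue, fewer cells that express a gene and less RNA of it per cell cannot be told apart.

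The main comparison asked whether 28 days of 7c left these genes at another level than vehicle. In liver, 9 of the 10 genes passed the filter of at least 10 counts in at least 50% of libraries, Fosb being left out. None passed an adjusted p of 0.05 in edgeR's quasi-likelihood test, where 1 of 15012 genes did (0.00666%), and 1 of the 9 had an unadjusted p under 0.05 against 3.76% of all genes tested. Limma-voom and edgeR's likelihood ratio test also called 0 of the 9, and DESeq2 called 0 of 8, giving Fos no adjusted p. Of the 15012 genes, limma-voom called 1, the likelihood ratio test 7 and DESeq2 6. The fitted values lay below 0 for 8 of 9 genes, with a median of -0.41 on the log2 scale against 0.00 for all genes tested. The 9 values share the same 10 livers, and 1 vehicle liver was high in most of the genes, as described further on.

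**Figure D2:**
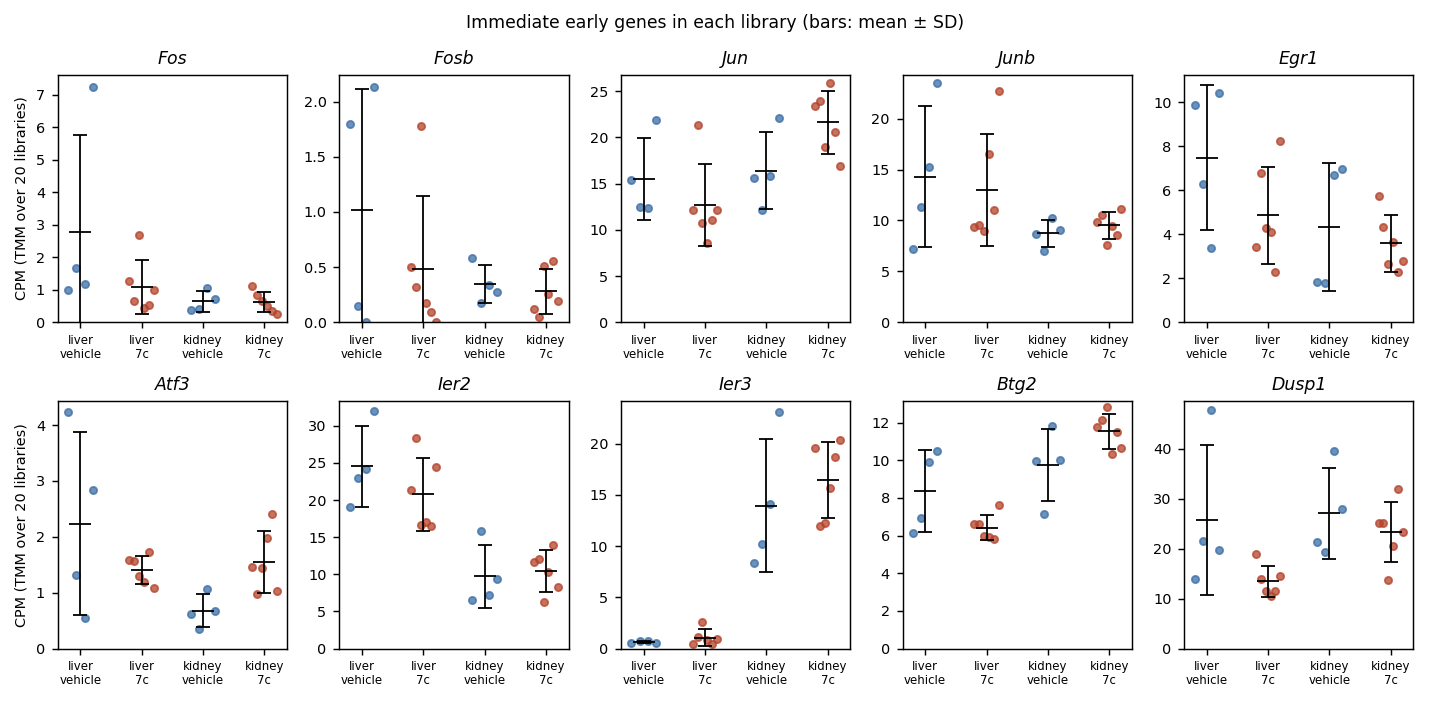
CPM of each of the 10 genes in each library, by tissue and treatment (4 vehicle and 6 7c libraries per tissue), with the mean and SD as bars that are cut at 0. In liver the vehicle points spread upward for Fos, Dusp1 and Atf3, to 7.24, 47.8 and 4.24 CPM, and in kidney 4 of 6 7c points of Atf3 lie above all vehicle points.

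The Fos family supplies AP-1 subunits that bind DNA only as dimers with a Jun protein. Fos (ENSMUSG00000021250, chromosome 12 of GRCm39, 85520658 to 85524047) had 0.979, 1.68, 1.17 and 7.24 CPM in the 4 vehicle livers and 0.427, 0.821 and 2.68 CPM as the lowest, median and highest of the 6 7c livers. Only the fourth vehicle liver stood clear of the 7c range, and 3 of 6 7c livers lay below the vehicle range. Its log2 fold change was -1.36 with a standard error of 0.638 and a 95% interval from -2.74 to 0.01 (edgeR, adjusted p = 1.00), and the exact permutation test gave p = 0.167 (two-sided, 210 splits). Of the 19 such permutation tests run, 9 in liver and 10 in kidney and unadjusted, 2 gave a p under 0.05, for Dusp1 in liver and Atf3 in kidney. Without vehicle replicate 4 the fitted log2 fold change was -0.23.

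In kidney Fos rested on 14 to 92 counts per library. Vehicle kidneys had 0.374, 0.403, 1.06 and 0.724 CPM, and the lowest, median and highest 7c kidneys 0.267, 0.572 and 1.12 CPM. The ranges of the groups overlapped, and the log2 fold change was -0.05 (95% interval -1.06 to 0.95, adjusted p = 0.997 from edgeR). Its sign changed in 7 of 20 alternative fits.

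Fosb (ENSMUSG00000003545, chromosome 7, 19036621 to 19043976), which like Fos holds a CArG box and is known for long-lived splice forms in brain, failed the filter in liver at the setting used. Vehicle livers had 1.79, 0.146, 0 and 2.13 CPM, and 7c livers ran from 0 through a median of 0.247 to 1.78 CPM. The 2 livers with 0 counts allow up to 0.103 CPM in vehicle replicate 3 and up to 0.136 CPM in 7c replicate 6, counting error only. These limits take each count as independent and would be higher if both reads of a pair were counted, which the sources used here do not settle. Both treatments thus held livers with next to no Fosb beside livers with more than 1 CPM. In kidney the level was 0.345 ± 0.171 CPM with vehicle (n = 4) and 0.279 ± 0.207 CPM with 7c (n = 6), and the log2 fold change of -0.33 had a 95% interval from -1.67 to 1.01 (adjusted p = 0.997 from edgeR).

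The Jun proteins are the obligate partners in AP-1. Jun (ENSMUSG00000052684, chromosome 4, 94937271 to 94940459), a gene of a single exon, had 15.4, 12.5, 12.4 and 21.9 CPM in vehicle livers and 8.55, 11.6 and 21.4 CPM as the lowest, median and highest of the 7c livers. Of the 7c livers 5 of 6 lay below the vehicle range, while the sixth, replicate 2, was nearly as high as the highest vehicle liver. Jun was at -0.32 on the log2 scale (95% interval -0.84 to 0.20, adjusted p = 1.00 from edgeR), at -0.096 without vehicle replicate 4 and at -0.53 without 7c replicate 2. In kidney the vehicle values were 15.6, 12.1, 15.9 and 22.1 CPM and the 7c values 16.9, 22.0 and 25.9 CPM as lowest, median and highest. There all 6 7c kidneys were above 3 of the 4 vehicle kidneys and 3 of 6 were above all 4. Its value of 0.38 on the log2 scale (standard error 0.171, 95% interval 0.01 to 0.75) had an adjusted p of 0.997 in edgeR's test, the exact permutation test gave p = 0.0571 (two-sided, 210 splits), and 2.61% of all genes tested in kidney had an unadjusted p under 0.05.

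Junb (ENSMUSG00000052837, chromosome 8, 85701113 to 85705359) had overlapping ranges in the 2 groups of livers, 7.18 to 23.5 CPM with vehicle and 8.92 to 22.7 CPM with 7c, and its log2 fold change was -0.17 (95% interval -0.88 to 0.54, adjusted p = 1.00 from edgeR). Kidneys were tighter, at 8.74 ± 1.33 CPM with vehicle (n = 4) and 9.51 ± 1.30 CPM with 7c (n = 6). The difference there was 0.11 on the log2 scale (95% interval -0.22 to 0.44, adjusted p = 0.997 from edgeR), with 0.021 when vehicle replicate 2 was left out and 0.20 when vehicle replicate 3 was. Exons of Junb and of Prdx2, a peroxiredoxin gene on the opposite strand with 3248 to 13740 counts per library, share 173 bases, and whether the counting used strand is not given in the sources used here.

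Egr1 is a zinc finger factor and Atf3 a CREB-related factor of the stress response. Egr1 (ENSMUSG00000038418, chromosome 18, 34992876 to 34998049) had 9.87, 6.27, 3.38 and 10.4 CPM in vehicle livers and 2.27, 4.20 and 8.24 CPM as the lowest, median and highest of the 7c livers. Vehicle replicates 1 and 4 were above all 7c livers, and 1 7c liver was below all vehicle livers. Egr1 was at -0.65 on the log2 scale (95% interval -1.44 to 0.15, adjusted p = 1.00 from edgeR), and at -0.43 with vehicle replicate 4 left out. In kidney the vehicle values split into 1.83 and 1.79 CPM against 6.71 and 6.96 CPM, and all 6 7c kidneys fell between these pairs at 2.30 to 5.76 CPM. The means were 4.32 ± 2.90 CPM with vehicle (n = 4) and 3.58 ± 1.30 CPM with 7c (n = 6), with a log2 fold change of -0.28 (95% interval -1.18 to 0.62, adjusted p = 0.997 from edgeR).

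Atf3 (ENSMUSG00000026628, chromosome 1, 190902493 to 190950241) gave the lowest p of the 10 genes in kidney. Vehicle kidneys had 0.623, 0.358, 1.06 and 0.668 CPM and the lowest, median and highest 7c kidneys 0.977, 1.46 and 2.40 CPM. All 6 7c kidneys were above 3 of the 4 vehicle kidneys and 4 of 6 were above all 4. For 7c against vehicle it was at 1.17 on the log2 scale (standard error 0.367, 95% interval 0.38 to 1.97), rank 72 of 17749 genes by edgeR's test and an adjusted p of 0.997. Over the alternatives the adjusted p ran from 0.410 to 1.00, and the log2 fold change from 0.96 to 1.48 when mice were left out in turn. The exact permutation test gave p = 0.0190 (two-sided). These values rest on 16 to 120 counts per kidney.

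In 7c kidneys the summed level of 8 adipocyte markers was 12.6 to 60.5 CPM, against an overlapping 2.42 to 13.4 CPM with vehicle. Of the 6 tested markers, 6 were higher with an unadjusted p under 0.05, where 2.61% of all genes tested had such a p. None passed an adjusted p of 0.05 (lowest 0.997 from edgeR). Of 5 hepatocyte markers, 5 were lower and 3 had an unadjusted p under 0.05. Of 5 blood cell markers, 5 were higher and 0 had such a p. The part of these transcripts in the values of Atf3 and Jun was not tested. In liver Atf3 behaved differently in spread, at 1.41 ± 0.254 CPM with 7c (n = 6) inside a vehicle range of 0.552 to 4.24 CPM (n = 4), and its log2 fold change was -0.68 (95% interval -1.68 to 0.31, adjusted p = 1.00 from edgeR). Without vehicle replicate 1 it was -0.18.

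Among the early regulators of growth and signalling, Dusp1 (ENSMUSG00000024190, chromosome 17, 26724564 to 26781102) gave the lowest p in liver. Vehicle livers had 13.9, 21.6, 47.8 and 19.7 CPM, and the lowest, median and highest 7c livers 10.5, 12.7 and 19.0 CPM. The third vehicle liver was far above all others, 3 of 6 7c livers were below the vehicle range and the other 3 inside it. On the log2 scale 7c was at -0.96 against vehicle (standard error 0.285, 95% interval -1.58 to -0.35), rank 43 of 15012 genes by edgeR's test and an adjusted p of 1.00. The lowest adjusted p over the alternatives was 0.348, from DESeq2, and the exact permutation test gave p = 0.0143 (two-sided). Without vehicle replicate 3 the log2 fold change was -0.46. In kidney Dusp1 had 27.1 ± 9.08 CPM with vehicle (n = 4) and 23.3 ± 6.01 CPM with 7c (n = 6), with a log2 fold change of -0.23 (95% interval -0.74 to 0.28, adjusted p = 0.997 from edgeR).

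Btg2 (ENSMUSG00000020423, chromosome 1, 134002908 to 134015033) was among the least variable of the 10. Vehicle livers had 6.12, 6.92, 9.93 and 10.5 CPM, and the 7c livers 5.81, 6.31 and 7.61 CPM as lowest, median and highest, so that 3 of 6 fell short of the lowest vehicle liver and 2 of 4 vehicle livers were above every 7c liver. Its log2 fold change was -0.41 with a standard error of 0.194 and a 95% interval from -0.83 to 0.01 (edgeR, adjusted p = 1.00), and the exact permutation test gave p = 0.0571 (two-sided). In kidney the sign was opposite, with 9.73 ± 1.92 CPM for vehicle (n = 4) and 11.5 ± 0.920 CPM for 7c (n = 6), a log2 fold change of 0.23 (95% interval -0.09 to 0.55) and an adjusted p of 0.997 from edgeR. It was 0.11 when vehicle replicate 2 was left out.

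Ier2 (ENSMUSG00000053560, chromosome 8, 85387960 to 85389483) was measured at 24.5 ± 5.45 CPM with vehicle (n = 4) and 20.7 ± 4.88 CPM with 7c (n = 6) in liver, and 7c was at -0.27 on the log2 scale (95% interval -0.67 to 0.13, adjusted p = 1.00 from edgeR). Leaving out vehicle replicate 4 gave -0.11. In kidney it was 9.71 ± 4.26 CPM with vehicle and 10.4 ± 2.78 CPM with 7c (log2 fold change 0.09, 95% interval -0.49 to 0.67). Ier3 (ENSMUSG00000003541, chromosome 17, 36132568 to 36133815) was the gene whose fitted value in liver lay above 0, at 0.72 (95% interval -0.44 to 1.89, adjusted p = 1.00 from edgeR). Its vehicle livers were close together at 0.568 to 0.729 CPM, with 14 to 20 counts each, whereas 7c livers ran from 0.454 to 2.59 CPM, of which 4 exceeded and 2 fell short of all vehicle livers. With 7c replicate 3 left out, its value was 0.23. In kidney, with 404 to 1606 counts, its log2 fold change was 0.23 (95% interval -0.35 to 0.80, adjusted p = 0.997 from edgeR), and it was 0.047 without vehicle replicate 1 and 0.58 without vehicle replicate 4.

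In kidney as a whole, 10 of 10 genes were tested and none passed an adjusted p of 0.05, where 0 of 17749 genes did (0%). Of the 10, 2 had an unadjusted p under 0.05, Atf3 and Jun, against 2.61% of all genes tested. DESeq2, limma-voom and edgeR's likelihood ratio test called 0 of the 10, where they called 18, 2 and 14 of the 17749 genes. The fitted values were above 0 for 6 genes and below 0 for 4, with a median of 0.10 (0.05 to 0.22 when mice were left out in turn) against -0.01 for all genes tested. In no gene of the 10 and in neither tissue did the 7c and vehicle ranges fail to overlap, where 0.666% of the genes tested in liver and 0.716% of those in kidney had separate ranges.

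**Figure D3:**
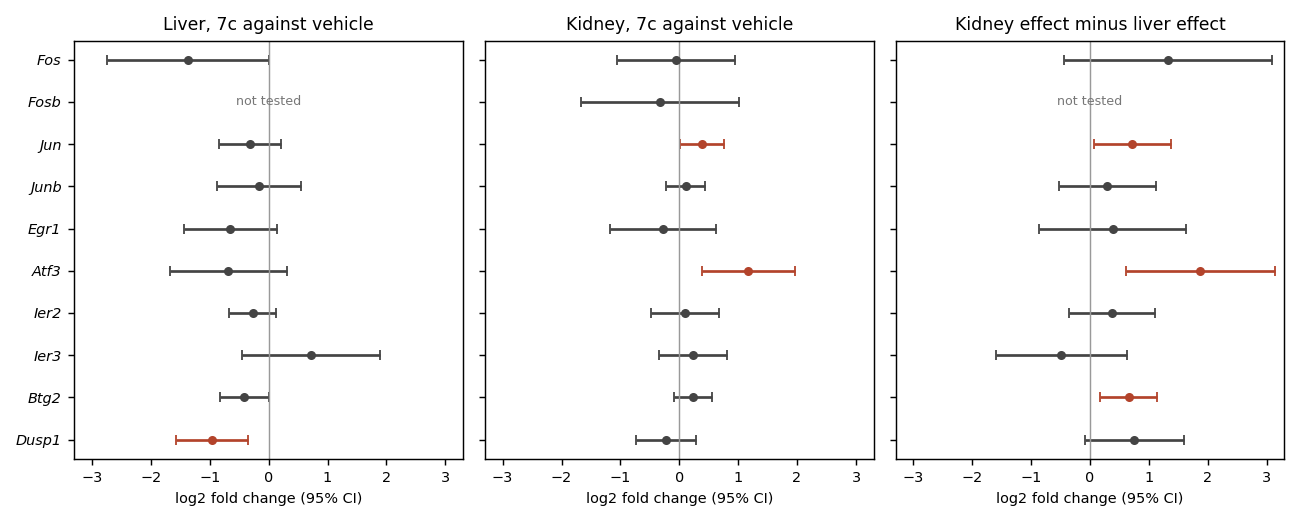
Log2 fold change of 7c against vehicle with its 95% interval in liver and in kidney, and the difference of the 2 effects (kidney minus liver), from edgeR's quasi-likelihood fit. Red marks an unadjusted p under 0.05: Dusp1 in liver, Atf3 and Jun in kidney, and Jun, Atf3 and Btg2 for the difference. Fosb was not tested in liver.

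Whether the 7c effect differed between the tissues was tested as an interaction over all 20 libraries, for the 9 genes tested in liver as well as in kidney. None passed an adjusted p of 0.05 in edgeR's quasi-likelihood test, where 1 of 14163 genes did (0.00706%). Limma-voom and edgeR's likelihood ratio test also called 0 of the 9, where they called 0 and 22 of all genes tested. DESeq2 gave these 9 genes no adjusted p and called 16 of all genes tested. An unadjusted p under 0.05 was seen for 3 of the 9 genes, against 2.49% of all genes tested. They were Atf3 with a difference of 1.87 on the log2 scale (95% interval 0.61 to 3.14), Btg2 with 0.65 (0.16 to 1.14) and Jun with 0.72 (0.07 to 1.37), each with an adjusted p of 1.00 in the edgeR fit. For 8 of 9 genes the kidney value was above the liver value, with a median difference of 0.65 against 0.00 for all genes tested. Without vehicle replicate 4 it was 7 of 9 with a median of 0.49, and without vehicle replicate 1 it was 7 of 9 with 0.70. Without 7c replicate 3 it was 9 of 9 with 0.61. Each of these differences uses the same vehicle livers as the liver comparison.

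The spread between mice was unequal among the genes. On the log2 CPM scale, the SD within a treatment in liver was 1.06 for Fos, higher than in 92.4% of the genes tested, 0.774 for Atf3, 0.700 for Ier3 and 0.693 for Egr1, against a median of 0.302 for all genes. Btg2 (0.272) and Ier2 (0.323) were near that median. In kidney Fosb (0.914, higher than in 91.3% of genes), Egr1 (0.773) and Fos (0.695) had the highest SD, whereas Btg2 (0.210), Junb (0.213) and Jun (0.279) were below the median of 0.349. This SD tends to rise as counts fall. A second measure divided edgeR's coefficient of variation by its trend for genes of like level. In liver it was highest for Junb (1.54), Dusp1 (1.49) and Fos (1.39), with Atf3 at 1.01 and Ier3 at 0.917. In kidney it was 1.48 for Egr1, 1.07 for Fosb and 0.973 for Fos. Counts per library reached at most 204 for Fos, 60 for Fosb, 120 for Atf3 and 472 for Egr1, and at most 64 for Ier3 in liver.

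In liver, vehicle replicate 4 stood apart. It was the highest of the 10 livers for 7 of the 10 genes, Fos, Fosb, Jun, Junb, Egr1, Ier2 and Btg2, and 8 of its 9 tested genes lay above the mean of the tissue, by a median of 0.76 and by up to 2.51 for Fos on the log2 scale. The other vehicle livers led in 1 gene each or none, replicate 1 in Atf3 and replicate 3 in Dusp1, and of the 7c livers only replicate 3 led in any, in Ier3. Without vehicle replicate 4, the median log2 fold change of the 9 genes in liver was -0.23, with 7 of 9 below 0 and Junb at 0.19. Among 7c livers, replicates 4 and 5 were lowest for 3 and 4 of the genes. In the kidneys of vehicle replicates 1 and 2, 1 of 10 genes lay above the mean of the tissue, with medians of -0.41 and -0.49. Replicate 2 was the lowest kidney for 5 of the 10 genes, and the kidney of vehicle replicate 4 was the highest in Egr1 and Ier3.

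The liver of 7c replicate 6 held skeletal muscle transcripts, with a summed level of the 10 muscle markers of 931 CPM where the median of the 7c livers was 1.39 CPM. It was the highest of the 7c livers for Junb, Egr1 and Btg2, and without it 8 of 9 genes still had a fitted value below 0, with a median of -0.46. The defining markers of hepatocytes were all detected in every group of livers and those of tubule and podocyte in every group of kidneys.

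**Figure D4:**
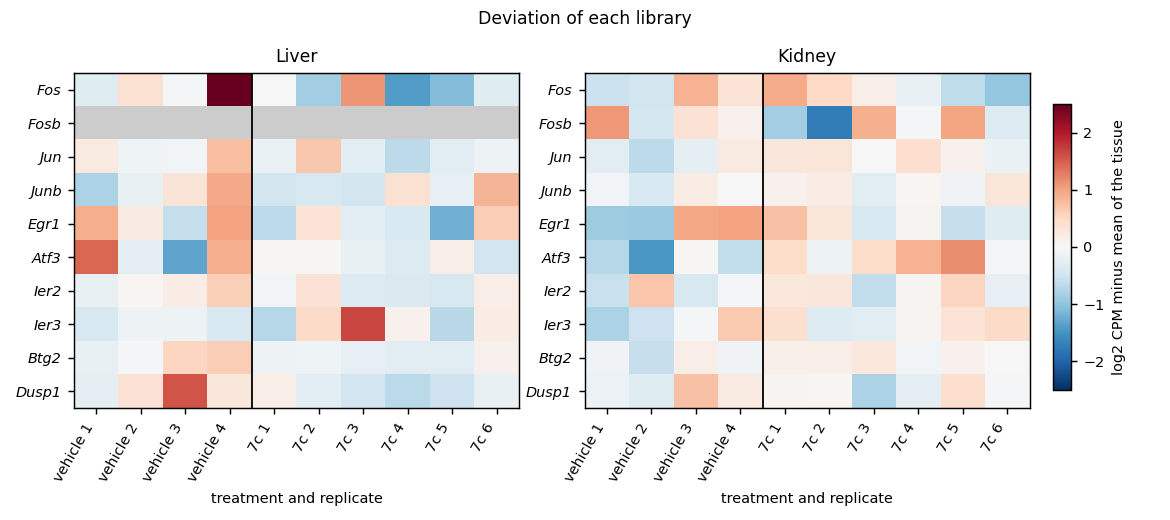
Log2 CPM of each gene minus its mean over the 10 libraries of the tissue, by library, with vehicle left and 7c right of the line and Fosb in liver left grey because it was not tested. The column of vehicle replicate 4 in liver is above the mean in 8 of 9 genes and reaches 2.51 for Fos, and those of vehicle replicates 1 and 2 in kidney are below it in 9 of 10.

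Whether the genes moved together from mouse to mouse was read from Pearson's r and Spearman's rho of log2 CPM over the 10 libraries of a tissue, for 81 pairs in all (36 in liver, 45 in kidney), with permutation tests of 100000 resamples and Benjamini-Hochberg adjustment over the 81 pairs. In liver r was positive for 26 of 36 pairs, with a median of 0.280 and a range from -0.430 to 0.815. No pair passed an adjusted p of 0.05 by Pearson's r, 6 had an unadjusted p under 0.05, and 1 passed by Spearman's rho. That pair was Ier2 and Btg2, with r = 0.793 (adjusted p = 0.177, permutation test) and rho = 0.927 (adjusted p = 0.0211, permutation test). Without the 2 livers farthest from the median of Ier2, r was 0.593.

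The other high pairs in liver were Jun and Ier2 (r = 0.815, permutation p = 0.00377, rho = 0.855) and Btg2 and Dusp1 (r = 0.773, permutation p = 0.0106, rho = 0.855). Without the 2 livers farthest from the median of the first gene, vehicle replicate 4 among them in both cases, r was 0.478 and 0.590. Atf3 and Dusp1 were at the other end with r = -0.430, which was 0.417 without vehicle replicates 1 and 3 and -0.784 with each treatment centred on its own mean.

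In kidney r was positive for 33 of 45 pairs, with a median of 0.187, or 0.317 with each treatment centred on its own mean (0.254 in liver). The mean r over the pairs was 0.258 in liver and 0.201 in kidney, beside 0.00027 and 0.00089 over all pairs of genes tested. Scaling of the libraries tends to hold the mean over all pairs near 0, so it is no baseline for a chosen set. No pair in kidney passed by either coefficient, and 3 had an unadjusted p under 0.05. Fos and Egr1, both genes with serum response factor as a known regulator, had r = 0.808 (permutation p = 0.00656, adjusted p = 0.177) and rho = 0.721 (permutation p = 0.0229, adjusted p = 0.352), and without the 2 farthest kidneys r was 0.862. With each treatment centred on its own mean it was 0.808. In liver the same pair had r = 0.456. Atf3 and Btg2 (r = 0.716) and Jun and Atf3 (r = 0.677) fell to 0.400 and 0.255 without the 2 farthest kidneys. Fosb, which with Fos had a match to the CArG box in the bases searched, had r = -0.346 with Fos in kidney, on 2 to 28 counts per library.

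**Figure D5:**
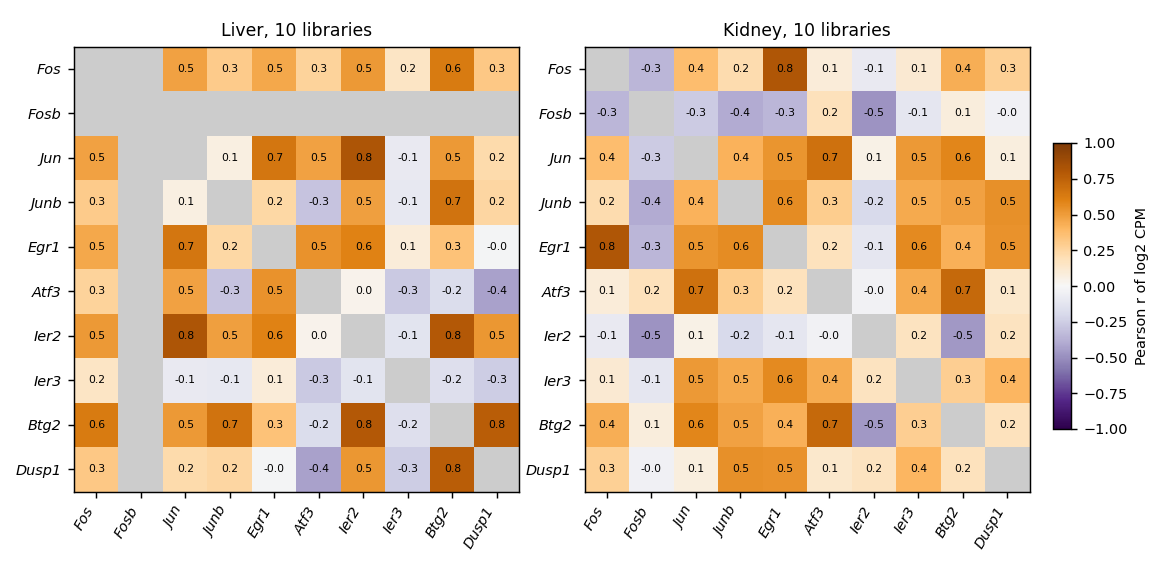
Pearson's r of log2 CPM between pairs of the genes over 10 livers and over 10 kidneys, rounded to 1 decimal, with grey for the diagonal and for Fosb in liver. Liver is led by Jun with Ier2 (0.815), and kidney by Fos with Egr1 (0.808).

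Fos was also compared with every other gene of at least 1 CPM. In liver the 5 closest non-members of 13044 were Gm5626 (r = 0.949), Zfp715 (0.937), Cby1 (0.891), Rit1 (0.888) and Pyurf (0.883), over 10 livers. Btg2, the closest of the 10 genes, had r = 0.632, and 376 other genes were closer. In kidney the 3 closest of 13703 were 2900076A07Rik (r = 0.920), Tnfrsf1b (0.912) and 9530082P21Rik (0.856), over 10 kidneys, and Egr1 followed with 12 genes ahead of it. These coefficients are given without a test.

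For a given mouse number, the level in liver and the level in kidney were set side by side, although the labels do not say that a number marks 1 mouse. For 9 genes r ran from -0.296 (Ier3) to 0.601 (Dusp1), and none passed an adjusted p of 0.05 over the 9 (lowest adjusted p = 0.709, permutation test). For Fos it was 0.262. Vehicle replicate 4, whose liver led in 7 genes, had the highest kidney in Egr1 and Ier3, and its kidney Fos of 0.724 CPM was inside the range of the 7c kidneys.

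Other early response genes were read from a fixed list of 37, of which 29 were tested in liver and 34 in kidney. None passed an adjusted p of 0.05 for 7c against vehicle in either tissue by edgeR, and 4 had an unadjusted p under 0.05 in each, against 3.76% of all genes tested in liver and 2.61% in kidney. In liver these were Plk2 (-0.33), Sik1 (-0.90), Cebpb (0.68) and Cebpd (0.51), and in kidney Klf2 (0.60), Gadd45b (0.54), Gadd45g (1.00) and Cebpb (0.55), log2 fold changes named after their values were seen, save for Sik1 and Gadd45b. The median log2 fold change of the list was -0.03 in liver and 0.12 in kidney.

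Nr4a1, Sik1, Crem and Per1, named from that list, are among the known CREB targets. Nr4a1, an orphan nuclear receptor, was at 1.84 ± 1.42 CPM with 7c (n = 6) and 4.17 ± 4.09 CPM with vehicle (n = 4), 0.136 to 10.1 CPM over all livers, which gave -1.22 on the log2 scale (edgeR, adjusted p = 1.00). Sik1, a kinase that restrains CREB signalling, had 13.3 ± 4.34 CPM with 7c and 24.1 ± 17.0 CPM with vehicle (log2 fold change -0.90, adjusted p = 1.00 from edgeR). Crem, whose early repressor form closes the cAMP response, had 33.4 ± 8.85 CPM with 7c and 37.6 ± 6.47 CPM with vehicle in liver (log2 fold change -0.19). Per1, a clock gene with CREs, ran from 0.671 to 39.7 CPM in 7c livers and from 3.06 to 14.0 CPM in vehicle livers, with a log2 fold change of 1.14 (adjusted p = 1.00 from edgeR). Time of day at collection is not given in the sources used here.

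Of the remaining genes named from that list, Egr2 failed the filter in liver with 0 to 50 counts, and its log2 fold change in kidney was -0.09. Zfp36, which destabilises AU-rich mRNA such as that of Fos, stood at 64.1 ± 16.8 CPM with 7c and 63.6 ± 11.7 CPM with vehicle in liver, -0.01 on the log2 scale with a standard error of 0.183. Myc was at -0.32 and Ppp1r15a, a subunit of the phosphatase that ends the integrated stress response, at -0.33. Klf4, one of the factors used for reprogramming, was at -0.03 in liver and 0.02 in kidney, and Gadd45b at 0.17 and 0.54. In kidney Nr4a1 was at 0.20, Zfp36 at -0.08, Myc at -0.25, Ppp1r15a at 0.13, Per1 at 0.77, Sik1 at 0.13 and Crem at 0.19, with adjusted p of 0.997 in edgeR's test.

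Other proteins of the same pathways were read from 4 further lists. Of 18 signalling proteins and factors upstream of them, 18 were tested in each tissue and 0 had an unadjusted p under 0.05 in edgeR's test, with medians of -0.02 in liver and -0.11 in kidney. Of 12 AP-1 dimer partners, 0 of 10 tested in liver and 2 of 11 in kidney had an unadjusted p under 0.05, Atf4 (0.37) and Jdp2 (0.57), named after their values were seen. Of 9 known AP-1 target genes, 0 of 4 tested in liver and 0 of 8 in kidney reached that level, and of 10 mRNA decay factors 0 of 10 in both tissues. None of these lists held a gene past an adjusted p of 0.05 in edgeR's test, and counts over these lists were made with that test only.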

How the data were processed

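Poly(A) RNA of liver and kidney was sequenced by the authors with a stranded kit, and reads were aligned to GRCm39 with STAR 2.7.11b and counted per gene with featureCounts 2.0.6. The deposited values are raw counts, without normalization, of 57010 genes in 20 libraries. The annotation release, the strand setting and the treatment of reads with several positions are not given in the sources used here. Of values from 6 to 20 counts, 82.9% were even, beside 74.1% from 1 to 5, 72.3% from 21 to 100 and 61.6% from 101 to 1000. Whether reads or read pairs were counted is not given in those sources. Gene names, exon lengths and promoters came from GENCODE vM39 and the GRCm39 genome.

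A gene was tested in a tissue where 50% or more of its libraries held 10 counts or more, with edgeR 4.0.16 (TMM, quasi-likelihood F-test, Benjamini-Hochberg over all genes tested, threshold 0.05), a method tested on simulated data. The authors' methods name a one-way model in edgeR without naming the test. For correlations, CPM was taken to log2 after a prior count of 2 was added, and permutation tests were two-sided. Levels across tissues were scaled by TMM over 20 libraries. The labels call the libraries biological replicates, without saying that a number marks the same mouse in both tissues, and p-values measure the spread between these libraries. No library repeated another, the lowest chi-square per gene of 90 pairs within a tissue being 23.2. Named were all 10 genes, 10 of the other early response genes, any gene of the lists past the threshold (there was none) and, per tissue, the 5 genes closest to Fos, of which the first 3 are given for kidney, since an item below them is not reported here. The 10 genes, the lists and the tests were chosen with earlier results of these data known.

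Alternatives tried were DESeq2 1.42.0, the likelihood ratio test, limma-voom from limma 3.58.1, RLE size factors, no filter, filterByExpr, a replicate block, all libraries in 1 fit, leaving out each mouse (across tissues, the liver and kidney of 1 number), and for correlations a prior count of 0.5 and centring by treatment. Library totals in place of TMM and counts divided by 2 were added after the data were seen.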

Additional observations from a re-analysis of the deposited data

Results flagged for a closer look

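In 40 groups of 4 or 6 libraries (10 genes in 4 groups), 5 held a library farther from its neighbours than Dixon's 95% limit allows. The limit was applied to CPM, and it flags about 1 group in 20 only where values are normally distributed. That was not tested for these CPM values, and the 40 groups share libraries. The 5 are therefore not a count against chance. All 5 were livers and all were the highest of their group. In vehicle, the Fos level of replicate 4 was 7.24 CPM with the next at 1.68 CPM. In 7c, replicate 3 stood out in 3 genes, with 2.68 CPM for Fos (next 1.26 CPM), 1.78 CPM for Fosb (next 0.503 CPM) and 2.59 CPM for Ier3 (next 1.13 CPM), on 66, 44 and 64 counts. Jun in 7c replicate 2 was at 21.4 CPM with the next at 12.1 CPM. Causes of these values were not tested.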

How the results depend on the processing

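Over the alternatives that gave an adjusted p, the count of the 10 genes past the threshold stayed at 0 for 7c against vehicle in liver, in kidney and for their difference (DESeq2 gave none for the difference and none for Fos in liver), and in kidney against liver it was 7, with 5 under library totals and 6 to 8 as mice were left out. Dusp1 in liver and Atf3, Jun and Btg2 in kidney kept their direction in every fit. Without 1 mouse at a time, ranges that crossed 0 were -0.40 to 0.19 for Junb in liver, and in kidney -0.32 to 0.31 for Fos, -0.63 to 0.047 for Fosb, -0.53 to 0.043 for Egr1, -0.059 to 0.43 for Ier2 and -0.36 to 0.013 for Dusp1. For the difference between tissues they were -0.052 to 0.51 for Junb, -0.028 to 0.92 for Egr1 and -0.70 to 0.089 for Ier3. With limma-voom, kidney Fos was at 0.0078 and Egr1 at 0.024. With library totals, kidney against liver was 0.088 for Junb, 0.074 for Egr1 and 0.053 for Atf3, and the median gene was 0.75. The number of pairs past the threshold by Pearson's r in liver, 0, was 0 to 1 as mice were left out. The causes were not tested.

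Deviations of 7c and vehicle libraries of 1 number correlated at -0.0632 to 0.301, over 0.1 in 1 of 8 pairs, so these numbers were not taken to pair them. Livers and kidneys of 1 number correlated at 0.0128 to 0.259, over 0.1 in 7 of 10 pairs and highest with their own number in 8 of 10, a hint from the data that such libraries may share a mouse. Not every pair was over 0.1, so the numbers entered a fit only as the replicate block, while in comparisons over both tissues the libraries of 1 number were left out together. With the replicate block, kidney Fos was at 0.32 and Egr1 at 0.13, and the counts of the 10 genes past the threshold were 0, 0, 0 and 7 as without it. Depth limits Fosb in kidney, with at most 28 counts per library, and Ier3 in liver, with at most 64.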
